A study of Mus musculus with 8 samples.

Results

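The genes described here are 33 genes that write or remove acetyl groups on histones and other proteins, or hold the removing enzymes on chromatin. They were chosen by name from the 52224 genes of the table and fall into 11 histone deacetylases (HDACs), 7 sirtuins, 6 corepressor subunits and 9 acetyltransferases. All 33 were measured in all 8 libraries, with 7 to 1733 reads per gene and library, and all 33 passed the filter on low values. Their transcripts were counted by RNA sequencing of mouse bone marrow hematopoietic stem cells, sorted as CD48-CD150+LSK (cells that lack lineage markers and CD48 and carry Sca-1, Kit and CD150). The groups are DekCon, with 4 libraries, and DekTg, also with 4. The labels give these names as the genotype and as the treatment and say nothing of the promoter, the Cre, the strain, the age or the pooling of mice, so what either group carries beyond its name is not known here. The labels do not say that libraries come from separate mice, so the p-values rest on a spread among samples that may be only technical.

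DEK is a chromatin protein that the series studies in relation to replication stress and to stem cell function in Fanconi anemia. Its normalized read count was listed at 477, 539, 632 and 395 in the DekCon libraries and at 2700, 2296, 1862 and 2710 in the DekTg libraries. The groups do not overlap, but the 4 DekTg values are not whole numbers of reads, so the size of this difference cannot be taken as measured. Recovered reads per library ranged from 2525884 to 4101132. All 13 stem cell and sort markers were above 0 in all 8 libraries, among them Kit, Ly6a (Sca-1) and Slamf1 (CD150), and so was Cd48, against which the cells were gated, at 128 to 259. DekCon replicate 2 stood apart in megakaryocyte markers: the summed count of 6 was 9472 against 2035 to 4835 in the other 7 libraries. Its Cd34 was 624 against 1109 to 2265. Granulocyte and monocyte markers also varied, and summed to 3151.5 to 9870 in DekCon and 1905 to 10431 in DekTg. Elane was 1730 and 1608 in DekCon replicates 2 and 3 against 288 and 310 in replicates 1 and 4. S100a8 was 4181 in DekTg replicate 3 and at most 876 in any other library. Erythroid markers summed to 153 to 442 in DekCon and 486 to 604 in DekTg, with 3 of 8 higher in DekTg by the limma test, all 3 globins (Hba-a1, Hba-a2 and Hbb-bs). The erythroid factor Klf1 and the receptor Epor of the same list did not pass, with means of 99.9 and 58.0 in DekCon against 42.6 and 24.6 in DekTg. Both DekCon means were raised by DekCon replicate 2. Klf1 was 36.8, 231, 95.2 and 37.0 in DekCon and 24.0 to 65.1 in DekTg. Epor was 30.4, 121, 55.6 and 25.5 in DekCon and 12.0 to 35.4 in DekTg. B and plasma cell markers summed to 526 to 1323 and 4635 to 5453, with Igkc and Jchain the 2 of 10 called higher in DekTg. No list had a marker at 0 in all libraries, and the part of these cells in the results below was not tested.

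Lysine acetylation of histone tails opens chromatin and is read by bromodomain proteins. Acetyltransferases such as CBP, p300 and the MYST enzymes add the mark, and zinc-dependent HDACs and NAD-dependent sirtuins remove it. HDACs of class I act inside large complexes built on scaffold proteins (SIN3, NuRD, CoREST and NCoR), and DEK is known to act on chromatin together with HDAC2 and with the NCoR1 and HDAC3 complex, the last in hematopoietic stem cells. Because of these links, Hdac2, Hdac3 and Ncor1 are given in full below whatever their p-value.

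No transcript of the 33 passed the test between DekTg and DekCon. The test was limma on log2(value + 1) over 37414 genes, of which 0.0347% were called at a Benjamini-Hochberg adjusted p under 0.05; the adjusted p of the 33 ran from 0.711 to 0.999. At an unadjusted p under 0.05, 2 of the 33 lay lower in DekTg (Hdac4 and Sirt6) and 0 higher, against 6.93% of all genes tested in either direction, 3.78% for lower and 3.15% for higher. Among genes with a mean normalized count of at least 100, where both of these members fall, 9.58% lay lower at that p, 1.09% higher, and 0.118% were called. By edgeR and by DESeq2 on the recovered reads, 0 of 33 were called as well and 2 of 33 had an unadjusted p under 0.05. The fold changes of all 33 lay between -0.56 and 0.20 on the log2 scale. Their 95% intervals stayed within a 2-fold change in either direction (a log2 value of 1) for 32 of the 33, the exception being Hdac5.

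The direction was mostly downward, and by a small amount. Of the members, 27 of 33 had a log2 fold change below 0 and 6 above 0, with a median of -0.16. Over all genes tested, 49.4% lay below 0 and the median was 0.0057, but the 33 are better expressed than most genes. Among the 7602 genes with a mean normalized count of at least 100, 71.0% lay below 0 and the median was -0.10; among the 26 members at that level, 22 lay below 0 and the median was -0.15. With quantile normalization, which gives all libraries the same distribution of values, 21 of 33 lay below 0, the members' median moved to -0.04 and that of the well-expressed genes to 0.0019. In bulk RNA, fewer cells of a type and less RNA per cell cannot be told apart.

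**Figure D1:**
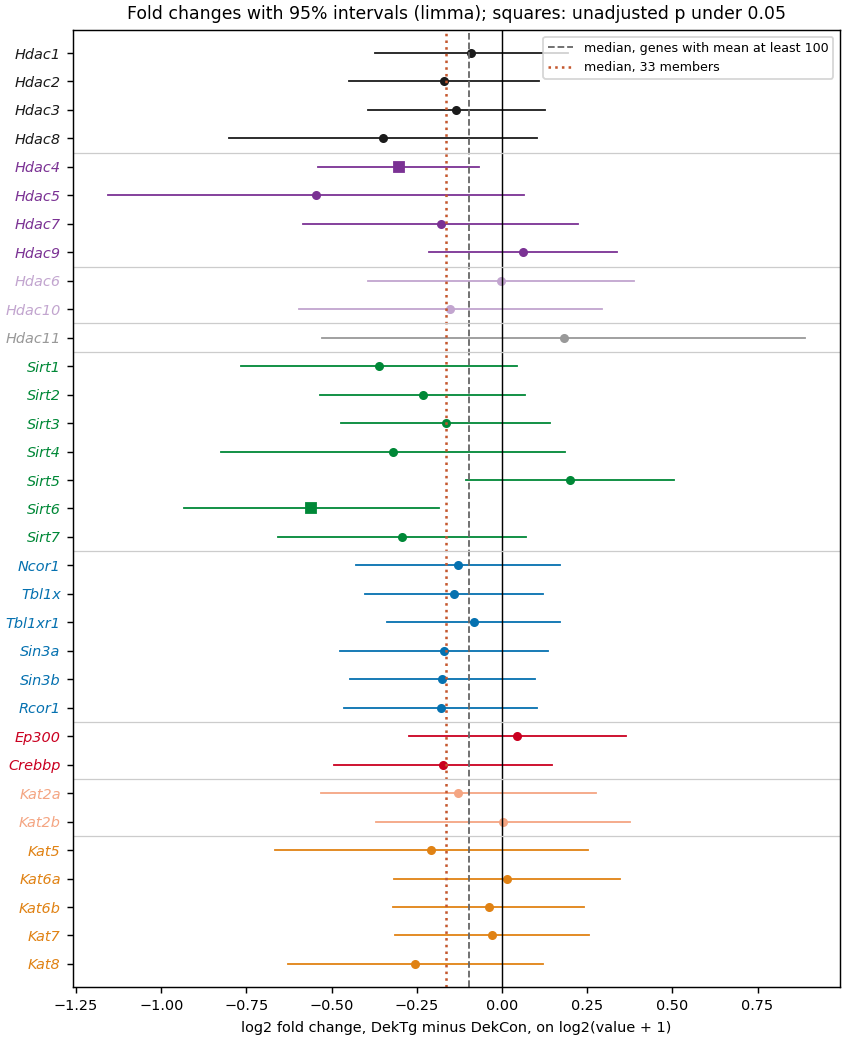
Log2 fold changes (DekTg minus DekCon, x axis) of the 33 genes with their 95% limma intervals, colored by enzyme or complex group. The 2 squares, Hdac4 and Sirt6, are the genes whose interval leaves out 0; the dashed line is the median of genes with a mean of at least 100 (-0.10) and the dotted line the median of the 33 (-0.16).

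The promoters of 3 genes are shown, picked by p-value or by groups that do not overlap. Hdac4 and Sirt6 had the smallest p-values, and Hdac4 and Sirt1 were the 2 of 33 whose groups did not overlap. Of all genes tested, 3.97% were without overlap in either direction, 1.88% with DekTg lower and 2.09% with DekTg higher. Among genes with a mean of at least 100, these shares were 4.42% lower and 1.14% higher. Each sequence runs 5′ to 3′ on the gene's strand from 250 bases before to 50 bases after a RefSeq start (GRCm38.p6, which mm10 names). Capitals mark matches, on either strand, to the GC box (GGGCGG), the CCAAT box (CCAAT), the ETS core (CCGGAAG), the core of the NRF1 site and the E-box (CACGTG). The windows lie at chr1:92180292-92180591 for Hdac4, chr10:81627517-81627816 for Sirt6 and chr10:63338986-63339285 for Sirt1, each on the minus strand. Those of Hdac4 and Sirt1 lie inside the annotated genes, whose 5′ ends are at chr1:92195699 and chr10:63381704. Which start these cells use was not tested.
Hdac4: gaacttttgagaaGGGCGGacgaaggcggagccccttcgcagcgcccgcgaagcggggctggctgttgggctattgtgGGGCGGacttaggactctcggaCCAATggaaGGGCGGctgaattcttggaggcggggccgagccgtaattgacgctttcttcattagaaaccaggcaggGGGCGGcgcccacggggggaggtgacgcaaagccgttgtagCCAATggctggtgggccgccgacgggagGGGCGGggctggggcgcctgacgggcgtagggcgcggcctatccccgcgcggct
Sirt6: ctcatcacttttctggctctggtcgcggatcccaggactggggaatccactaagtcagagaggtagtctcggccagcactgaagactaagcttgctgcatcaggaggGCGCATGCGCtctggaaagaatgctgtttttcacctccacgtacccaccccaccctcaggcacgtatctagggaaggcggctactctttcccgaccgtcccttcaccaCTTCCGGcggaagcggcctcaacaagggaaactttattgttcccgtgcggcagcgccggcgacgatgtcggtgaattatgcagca
Sirt1: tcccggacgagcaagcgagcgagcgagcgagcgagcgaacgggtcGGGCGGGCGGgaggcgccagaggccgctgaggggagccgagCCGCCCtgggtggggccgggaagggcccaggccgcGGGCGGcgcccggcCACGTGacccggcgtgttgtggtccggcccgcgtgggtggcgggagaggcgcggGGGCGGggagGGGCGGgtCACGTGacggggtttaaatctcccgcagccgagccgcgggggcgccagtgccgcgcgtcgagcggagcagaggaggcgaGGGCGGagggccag

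The window of Hdac4 holds 5 GC boxes and 2 CCAAT boxes, that of Sirt6 an NRF1 site and an ETS core, and that of Sirt1 GC boxes, some of which overlap, and 2 E-boxes. CpG dinucleotides number 32, 20 and 47 in the 3 windows. RefSeq promoters were matched for 29 of the 33 genes, as 41 windows. A ratio of observed to expected CpG of at least 0.6 was found in 31 of the 41 windows, or 75.6%, against 35.8% of all 32851 promoter windows. A GC box was in 63.4% of the members' windows and 35.7% of all windows, a CCAAT box in 39.0% and 37.4%, an ETS core in 17.1% and 8.86%, an NRF1 site in 7.32% and 4.60%, and an E-box in 7.32% and 7.15%. Of 3 other motifs searched, TATAAA (the TATA box) was in 7.32% and 13.6%, YY1 in 2.44% and 0.633%, and the cyclic AMP response element (TGACGTCA) in 0 of 41 windows and 1.79% of all. These matches are a description of letters. No motif searched was in all 3 windows; a second RefSeq start of Sirt6, not shown, has a window with a GC box.

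Class I holds the main nuclear deacetylases, and the values of its 4 genes overlap between the groups. Hdac2, the partner of Hdac1 in the SIN3, NuRD and CoREST complexes, was counted at 371, 384, 320 and 353 in DekCon and 286, 395, 299 and 297 in DekTg. DekTg replicates 1, 3 and 4 were below all DekCon libraries and DekTg replicate 2 was above them, so the groups overlap. Its log2 fold change was -0.17 (95% interval -0.45 to 0.11, limma adjusted p = 0.813), and -0.28 without DekTg replicate 2 (limma adjusted p = 0.542). Hdac3, the enzyme of the NCoR complex, was counted at 377, 431, 362 and 330 in DekCon and 312, 362, 331 and 356 in DekTg. Its log2 fold change was -0.13 (95% interval -0.39 to 0.13, limma adjusted p = 0.842), which was -0.065 without DekCon replicate 2. Hdac1 averaged 588 ± 83 in DekCon and 552 ± 67 in DekTg (SD over 4 libraries each), with a log2 fold change of -0.09 that ranged from -0.18 to -0.017 on leaving out each library in turn. Hdac8, which deacetylates the cohesin ring and works outside these complexes, was counted at 72.3, 82.3, 47.1 and 61.7 in DekCon and 40.4, 58.9, 41.7 and 65.1 in DekTg. It had the lowest log2 fold change of the class, -0.35, with a wide interval of -0.80 to 0.10 (limma adjusted p = 0.775).

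**Figure D2:**
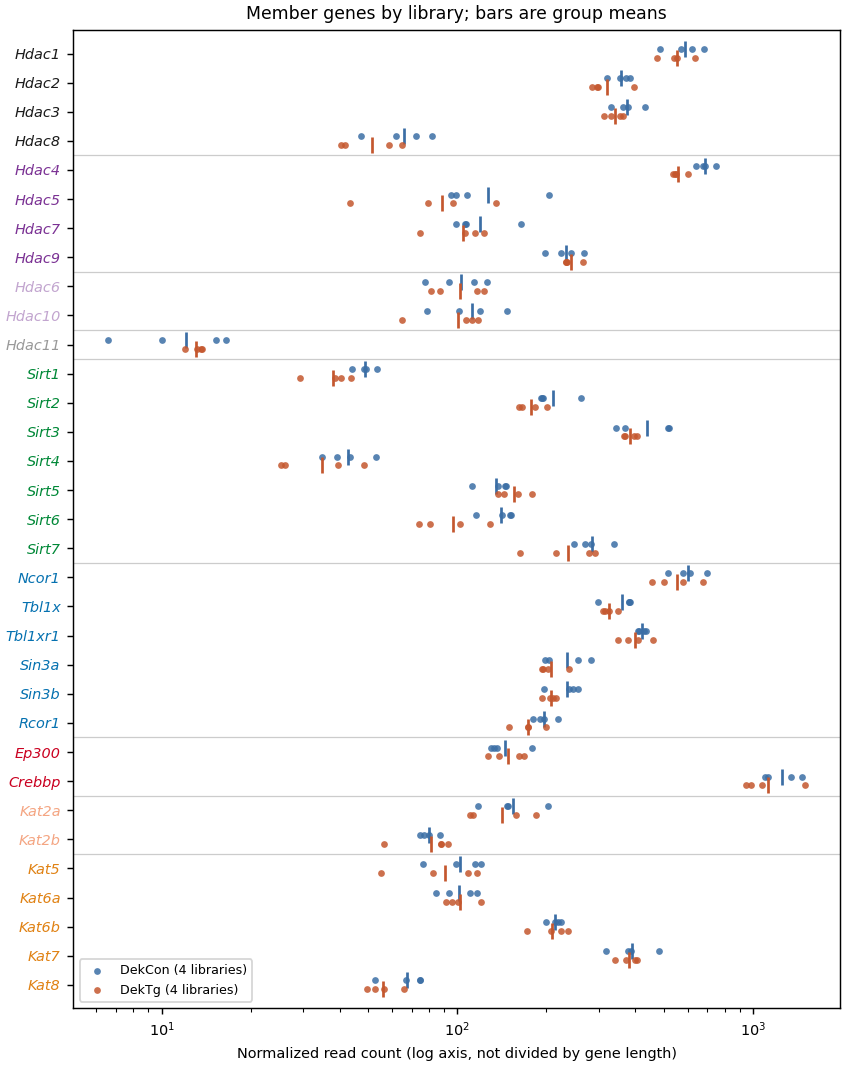
Normalized read counts (log x axis, not divided by gene length) of the 33 genes in the 4 DekCon and 4 DekTg libraries, with short bars at the group means. The points of the groups overlap for all genes but Hdac4 and Sirt1.

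Class IIa enzymes have little deacetylase activity of their own; they carry the NCoR and HDAC3 complex to transcription factors such as MEF2 and move between nucleus and cytoplasm on signals. Hdac4 was counted at 748, 676, 640 and 686 in DekCon and 600, 535, 543 and 548 in DekTg. All 4 DekTg libraries lay below all 4 DekCon libraries. Its means were 687 ± 45 and 557 ± 30 (SD over 4 libraries each), a ratio of 0.81, with a log2 fold change of -0.30 (SE 0.11, limma unadjusted p = 0.0151, adjusted p = 0.711). With quantile normalization the log2 fold change of Hdac4 was -0.14. Hdac4 maps to chr1:91928779-92195699 (minus strand, mm10), where 3536 bases of its annotated exons (22.4%) overlap Gm26720, a long noncoding RNA on the other strand that was not analysed here. Whether the counting used strand is not stated, so reads of Gm26720 cannot be told from those of Hdac4 in that stretch.

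The other class IIa genes did not separate the groups. Hdac5 was counted at 98.9, 204, 95.2 and 108 in DekCon and 96.4, 43.2, 79.6 and 135 in DekTg. DekCon replicate 2 was the highest library and DekTg replicate 2 the lowest, and the other 6 overlap. The log2 fold change of Hdac5 was -0.54 (95% interval -1.16 to 0.07, limma adjusted p = 0.742); it was -0.24 without DekTg replicate 2 and -0.29 without DekCon replicate 2. Hdac7, which is prominent in lymphoid and endothelial cells, had a log2 fold change of -0.18, which was -0.014 without DekCon replicate 2 and -0.026 without DekTg replicate 2. Hdac9 had 0.06, with means of 233 ± 29 and 242 ± 17 (SD over 4 libraries each).

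Class IIb and class IV genes were low to moderate. Hdac6, the cytoplasmic tubulin deacetylase, was counted at 126, 77.5, 93.3 and 113 in DekCon and 116, 81.7, 123 and 87.1 in DekTg. The means, 102.4 ± 21.3 and 102.1 ± 20.7 (SD over 4 libraries each), were nearly equal, and the 95% interval of the log2 difference ran from -0.39 to 0.39. Hdac10, a polyamine deacetylase, was counted at 119, 101, 79.2 and 147 in DekCon and 107, 64.9, 117 and 112 in DekTg, with a log2 fold change of -0.15 (limma adjusted p = 0.902). Hdac11, the single class IV enzyme, was the least counted of the 33. It was counted at 16.5, 15.3, 6.60 and 10.03 in DekCon and 13.2, 12.0, 13.6 and 13.6 in DekTg, from 7 to 16 reads per library. Its 95% interval of -0.53 to 0.89 was the widest among the 11 HDACs, so a difference below that size was not detectable at this depth.

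Among sirtuins, 6 of 7 lay lower in DekTg, with a median log2 fold change of -0.29, and 0 of 7 passed the test. Sirt6, a nuclear sirtuin that acts on chromatin, telomeres and DNA repair, had the smallest p of all 33 genes. It was counted at 152, 150, 116 and 141 in DekCon and 74.2, 129, 80.5 and 102 in DekTg. DekTg replicates 1, 3 and 4 lay below all DekCon libraries, and DekTg replicate 2 lay above DekCon replicate 3. The means were 140 ± 17 and 96.3 ± 24.5 (SD over 4 libraries each), a ratio of 0.69 and a log2 fold change of -0.56 (SE 0.18, limma unadjusted p = 0.00573, adjusted p = 0.711). Over the 23 alternatives run, the log2 fold change of Sirt6 stayed between -0.71 and -0.45 and its adjusted p between 0.252 and 0.975, so it was called in none. Sirt6 maps to chr10:81621785-81627797 (minus strand, mm10), with no exon of another annotated gene over its own.

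Sirt1, which deacetylates histones and p53, was counted at 48.2, 53.6, 49.0 and 44.0 in DekCon and 40.4, 38.4, 43.7 and 29.4 in DekTg. The groups do not overlap, but the highest DekTg library and the lowest DekCon library were 43.7 and 44.0, a gap of less than 1 read. Its log2 fold change was -0.36 (95% interval -0.77 to 0.04, limma adjusted p = 0.742). Sirt7, which acts in the nucleolus and on mitochondrial stress in stem cells, ranged from 249 to 338 in DekCon and from 162 to 293 in DekTg, with a log2 fold change of -0.29 that was -0.12 without DekTg replicate 2. That of the cytoplasmic Sirt2 was -0.23, and -0.12 without DekCon replicate 2. The mitochondrial sirtuins did not share a direction: the log2 fold change was -0.16 for Sirt3, -0.32 for Sirt4 and 0.20 for Sirt5, which removes succinyl and malonyl groups. Sirt5 had the highest log2 fold change of the 33 (95% interval -0.11 to 0.50). On leaving out each library in turn these values ranged from -0.27 to -0.072 for Sirt3, from -0.49 to -0.19 for Sirt4 and from 0.11 to 0.25 for Sirt5. The exons of Sirt3 overlap those of Ric8a and Psmd13 on the other strand over 7.00% and 5.73% of their length. The median of the 7 sirtuins was -0.18 with quantile normalization and -0.19 without DekTg replicate 2.

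The corepressor subunits lay close together. All 6 had a log2 fold change below 0, between -0.18 and -0.08, with a median of -0.16, and 0 of 6 passed the test. Ncor1, the scaffold that holds HDAC3, was counted at 515, 700.5, 578 and 612 in DekCon and 499, 677, 580 and 456 in DekTg. The groups overlap over most of their range, and the log2 fold change was -0.13 (95% interval -0.43 to 0.17, limma adjusted p = 0.865). It ranged from -0.23 without DekTg replicate 2 to -0.041 without DekTg replicate 4, and was 0.017 with quantile normalization, so its direction depends on the scaling. Its partners Tbl1x and Tbl1xr1, WD-repeat proteins of the same complex, averaged 360 ± 41 and 420.03 ± 12.5 in DekCon and 325 ± 17 and 398 ± 47 in DekTg (SD over 4 libraries each).

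Scaffolds of the HDAC1 and HDAC2 complexes were alike in size. Sin3b was counted at 246, 239, 196 and 255 in DekCon and 206, 193, 215 and 211 in DekTg, with a log2 fold change of -0.17 (limma adjusted p = 0.807). Rcor1, the CoREST scaffold that joins the deacetylases to the demethylase Kdm1a, was counted at 180, 218, 197 and 191 in DekCon and 173, 199, 149 and 173 in DekTg. Its log2 fold change was -0.18 (95% interval -0.46 to 0.10, limma adjusted p = 0.810). Sin3a had -0.17, and -0.077 without DekCon replicate 2. The lowest bound of the 95% intervals of these 3 scaffolds was -0.48, that of Sin3a.

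The acetyltransferases lay nearest to 0. Of 9 genes, 6 had a log2 fold change below 0 and 3 above, with a median of -0.04, and 0 of 9 passed the test or had an unadjusted p under 0.05. Crebbp, which encodes CBP and is needed for stem cell self-renewal, was counted at 1463, 1098, 1123 and 1338 in DekCon and 980, 1494, 1075 and 948 in DekTg. DekTg replicate 2 was the highest of all 8 libraries and DekTg replicate 4 the lowest, so the spread within DekTg exceeds the difference between groups (log2 fold change -0.17, limma adjusted p = 0.837). Without DekTg replicate 2 the log2 fold change of Crebbp was -0.32 (limma adjusted p = 0.517). Its relative Ep300, which encodes p300, was counted at 136, 130, 179 and 133 in DekCon and 162, 168, 138 and 127 in DekTg, with a log2 fold change of 0.04 (95% interval -0.27 to 0.36).

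Of the GNAT enzymes, Kat2a was counted at 148, 202, 118 and 147 in DekCon and 158, 111, 113 and 185 in DekTg (log2 fold change -0.13, limma adjusted p = 0.913). Kat2b was counted at 77.3, 87.1, 80.1 and 74.9 in DekCon and 93.1, 87.7, 56.3 and 88.2 in DekTg. Its log2 fold change was 0.0018 (95% interval -0.37 to 0.37), and both GNAT genes overlap between groups. Annotated pseudogenes carry the names of Kat2b and Kat6b, so reads of these 2 genes may not be assigned securely.

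Of the MYST enzymes, Kat8, the lysine acetyltransferase of the MSL and NSL complexes, was counted at 74.8, 74.6, 52.8 and 67.1 in DekCon and 65.9, 56.5, 49.5 and 52.5 in DekTg. Its log2 fold change was -0.25 (95% interval -0.63 to 0.12, limma adjusted p = 0.795). Kat5, the TIP60 enzyme of the DNA damage response, was counted at 120, 98.6, 76.3 and 114 in DekCon and 109, 55.3, 82.5 and 117 in DekTg. DekTg replicate 2 carries most of that difference: the log2 fold change of Kat5 was -0.21 with it and 0.0090 without it. The exons of Kat5 overlap Rnaseh2c on the other strand over 12.1% of their length. Kat6a and Kat7, whose enzymes (MOZ and HBO1) maintain hematopoietic stem cells, had log2 fold changes of 0.02 and -0.03, and Kat6b had -0.04.

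To compare levels between genes, normalized counts were divided by the length of annotated exons (kb, all exons of a gene merged). On that scale Hdac1 led, with 171 ± 24 per kb in DekCon and 160 ± 19 in DekTg (SD over 4 libraries each). By the mean of all 8 libraries, Hdac3 (92.4 ± 10.4 in DekCon), Crebbp (92.7 ± 12.9), Hdac2 (79.9 ± 6.2), Kat7 (70.6 ± 12.0) and Sirt3 (73.3 ± 15.7) came next. Sirt1 at 9.13 ± 0.74 and Hdac11 at 3.14 ± 1.2 were last. Of 32 neighbouring pairs in the order of the 33, only 2 had ranges over the 8 libraries that stayed apart, Hdac1 above Hdac3 and Sirt1 above Hdac11; all other neighbours overlap. With the longest transcript as the length, Hdac1 stayed first and Hdac11 last, and Sirt3 moved from the sixth place to the second.

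**Figure D3:**
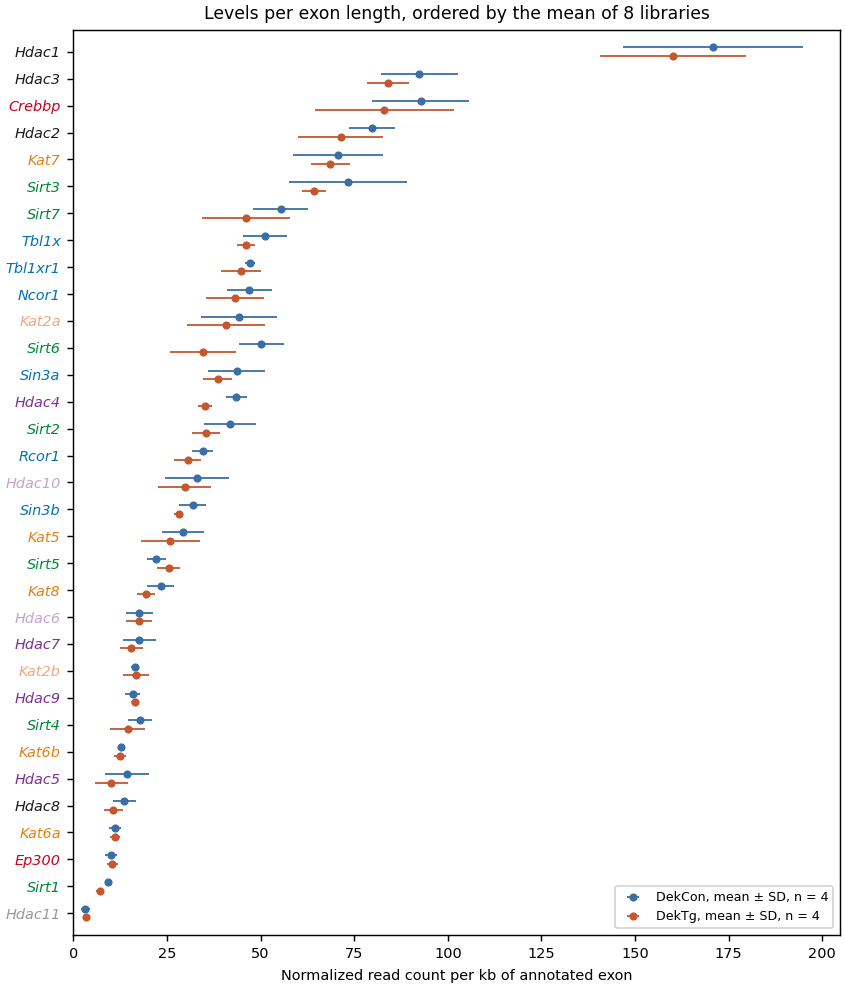
Normalized read count per kb of annotated exon (x axis) of the 33 genes, mean ± SD of 4 DekCon and 4 DekTg libraries, ordered by the mean of all 8. Hdac1 stands above all others (171 per kb in DekCon), and Hdac11 is lowest (3.14 per kb).

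Within a library, a ratio of genes does not depend on the scaling between libraries. Class I genes made up 71.0 ± 1.7% of the summed HDAC level per kb in DekCon and 71.7 ± 4.5% in DekTg (SD over 4 libraries each), and class IIa genes 18.2 ± 0.9% and 17.1 ± 2.1%. Hdac1 exceeded Hdac2 by 1.96 to 2.41 times per kb over the 8 libraries, and by 2.40 to 2.96 times with the longest transcript as the length. Crebbp exceeded Ep300 by 6.39 to 11.4 times per kb over the same libraries, and by 5.36 to 9.54 times with the longest transcript as the length. Hdac4 made up 47.9 ± 4.9% of the class IIa level in DekCon and 45.7 ± 3.4% in DekTg. Each of these shares and ratios overlaps between the groups.

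The other subunits of these complexes, and other enzymes and readers of the mark, were described from 10 lists with 106 genes. None of the 106 passed the test by limma or DESeq2, and none of the 104 that edgeR tested did. By limma, 16 of 106 had an unadjusted p under 0.05, all lower in DekTg, against 3.78% of all genes tested. Of the 73 partner genes with a mean of at least 100, 12 lay lower at that p, against 9.58% of all genes at that level. In all, 87 of 106 lay below 0, with a median of -0.14, against 49.4% and 0.0057 over all genes tested. Of the 73, 61 lay below 0, with a median of -0.14, against 71.0% and -0.10 for all genes with a mean of at least 100.

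The BET proteins, which read acetyl-lysine through bromodomains, had the lowest median of the 10 lists, -0.35 over 4 genes. Brd3 had the smallest p of the 106 genes and was counted at 1465, 1769, 1443 and 1439 in DekCon and 1032, 1247, 1132 and 996 in DekTg. Its groups do not overlap, with a log2 fold change of -0.47 (SE 0.12, limma adjusted p = 0.639). In all, 5 of 106 partners had groups that do not overlap, each lower in DekTg: Brd3, Taf5l, Hcfc1, Sap30 and Kansl1. Over all genes tested that share was 1.88%, and among genes with a mean of at least 100 it was 4.42%, where 4 of 73 partners fall.

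Among partners of the deacetylases, the gene of smallest p in each list is given here. Gps2, which sits beside Ncor1 and HDAC3, was counted at 110.3, 159.8, 83.9 and 120.4 in DekCon and 90.7, 49.2, 78.6 and 93.4 in DekTg (log2 fold change -0.60, limma adjusted p = 0.711). Ing1, a SIN3 subunit that reads methylated histone, was counted at 127, 123, 101 and 127 in DekCon and 104, 72.1, 102 and 70.3 in DekTg (log2 fold change -0.47, limma adjusted p = 0.711). Both genes overlap between the groups. The NuRD subunit Mta3 was counted at 128, 146, 138 and 133 in DekCon and 99.7, 129, 101 and 102 in DekTg (log2 fold change -0.34, limma adjusted p = 0.711). The CoREST subunit Hmg20b was counted at 74.8, 113, 68.8 and 86.4 in DekCon and 84.9, 43.2, 50.5 and 78.7 in DekTg (log2 fold change -0.44, limma adjusted p = 0.727). These groups overlap too, that of Mta3 through DekTg replicate 2 alone.

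The same rule names 5 genes from the acetyltransferase complexes. Taf5l, a SAGA subunit, was counted at 212, 234, 168 and 187 in DekCon and 148, 121, 144 and 141 in DekTg (log2 fold change -0.52, limma adjusted p = 0.654). Hcfc1, a host cell factor of the NSL complex, was counted at 498, 673, 502 and 490.1 in DekCon and 341, 472, 450.3 and 355 in DekTg (log2 fold change -0.42, limma adjusted p = 0.711). All DekTg libraries of these genes lie below all DekCon libraries. Ruvbl1 of TIP60 was counted at 341, 444, 262 and 373 in DekCon and 292, 225, 262 and 307 in DekTg (log2 fold change -0.37, limma adjusted p = 0.711). The coactivator Ncoa3 was counted at 425, 794, 544 and 398 in DekCon and 272, 637, 318 and 240.4 in DekTg (log2 fold change -0.61, limma adjusted p = 0.711). Ing5 of the MOZ and HBO1 complexes was counted at 447, 494, 416 and 468 in DekCon and 364, 383, 433 and 429 in DekTg (log2 fold change -0.18, limma adjusted p = 0.783). These last 3 genes overlap between the groups, and Ncoa3 was highest in replicate 2 of either group. All 15 TIP60 partners lay below 0, with a median of -0.14.

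**Figure D4:**
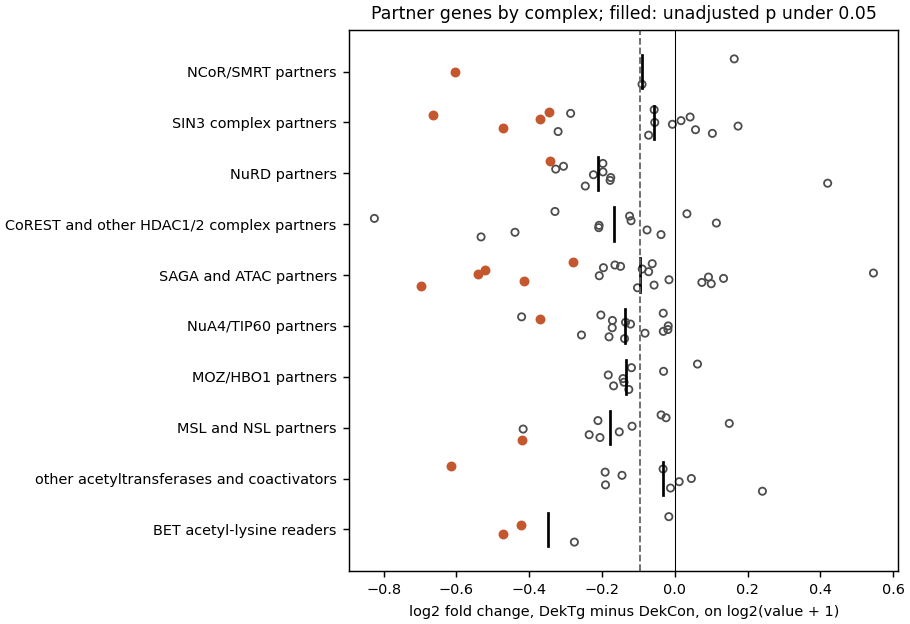
Log2 fold changes (DekTg minus DekCon, x axis) of 106 partner genes in 10 lists; black bars are list medians, filled points have an unadjusted p under 0.05 and the dashed line is the median of genes with a mean of at least 100 (-0.10). All 16 filled points lie below 0, and none passed after adjustment.

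The small downward median was compared across ways of processing. The members' median stayed below 0 in all 23 alternatives, from -0.22 without DekCon replicate 3 to -0.04 with quantile normalization. Not all of these could move that median. It was -0.16 by design with other filters, without limma's trend, with limma's robust option and without the genes with fractional reads. The same held with a term for the replicate number or for libraries 1 and 4. Without DekCon replicate 2, the library highest in megakaryocyte markers, it was -0.12 and that of the well-expressed genes was -0.07. Without DekTg replicate 2, which correlated least with the other 7 libraries (mean correlation 0.931), these medians were -0.16 and -0.11. The number of members below 0 ranged from 21 to 29 over the alternatives.

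**Figure D5:**
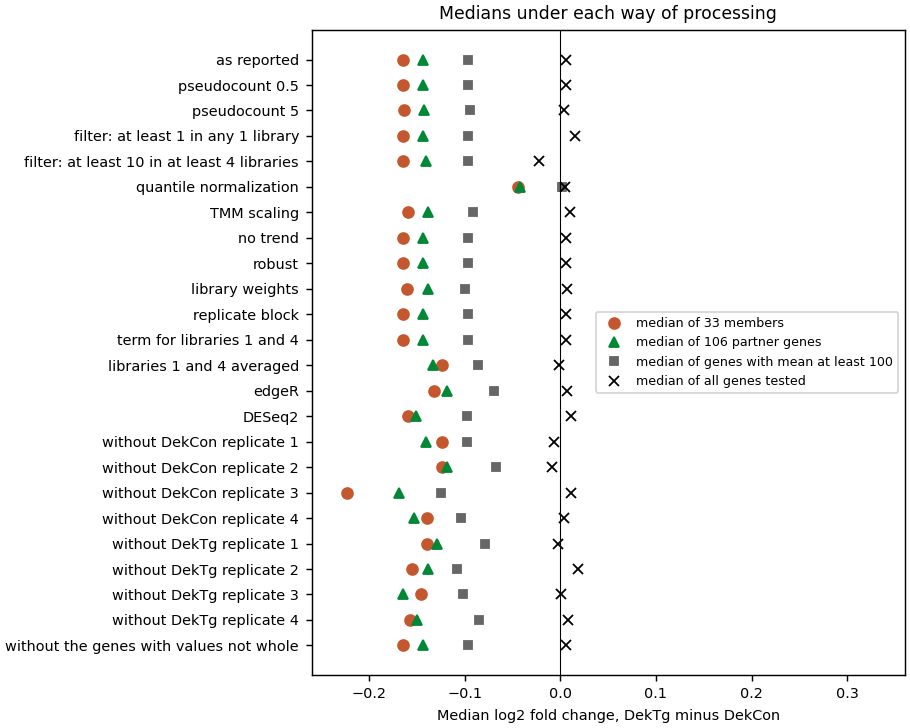
Median log2 fold change (x axis) of the 33 genes, the 106 partner genes, the genes with a mean of at least 100 and all genes tested, for the reported setting and 23 alternatives. The members' median lies at -0.16 as reported and at -0.04 with quantile normalization.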

How the data were processed

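Libraries were made by Geo-seq amplification of total RNA and a tagmentation kit, per the labels' protocols. The submitters' processing notes name mm10 as the build and, with no role or order, DESeq2, HTSeq, Bowtie 0.12.9 and Cufflinks 2.1.1; no source used here gives the annotation or the strand setting. The table, named FPKM, holds 1 deposited signal value per gene and library, yet 99.99% of 417792 values are whole multiples of 1 step per library (tolerance 0.001 reads; 25 values in 6 genes are not, Dek among them and no member or partner). The steps match the inverse of median-of-ratios size factors within 4.23e-05, so the values were read as counts that the authors divided by a size factor, with whole reads recovered for edgeR and DESeq2. The DekCon columns are spelled DenCon and were matched by title and number.

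Genes with a value of at least 1 in at least 4 libraries were tested with limma 3.58.1 (R 4.3.3, trend, no covariates, two-sided, pseudocount 1, Benjamini-Hochberg threshold 0.05). The fit was checked on simulated reads with changes of 2-fold or more, so that check does not cover changes as small as those of the members. edgeR 4.0.16 and DESeq2 1.42.0 (without independent filtering) ran on recovered reads without the 6 genes. Fold changes on log2(value + 1) understate low genes. The member, partner and marker lists and the tests were chosen with earlier results of these data known. Given in full are members with an unadjusted p under 0.05, the 2 of smallest p per group, Hdac2, Hdac3 and Ncor1, and the partner of smallest p per list. Positions, exon lengths and overlaps are from GENCODE M21 (GRCm38), promoters from RefSeq GRCm38.p6. Reads of amplified cDNA carry no molecular identifiers and are not independent molecules.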

Additional observations from a re-analysis of the deposited data

Results flagged for a closer look

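In 8 of the 66 sets of 4 libraries (33 genes in each group), the highest or lowest library lay far from the other 3 by Dixon's test at the 95% level; about 1 in 20, or 3.3 sets, is given by chance. DekCon replicate 2 was the highest for Hdac5 (204, others 95.2 to 108), Hdac7 (165, others 98.8 to 106) and Sirt2 (262, others 192 to 194). DekCon replicate 3 was the lowest for Tbl1x (299, others 379 to 383) and the highest for Ep300 (179, others 130 to 136). DekTg replicate 2 was the highest for Hdac2 (395, others 286 to 299) and Hdac9 (267, others 232 to 235). DekTg replicate 3 was the lowest for Kat2b (56.3, others 87.7 to 93.1).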

How the results depend on the processing

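No member and no partner gene was called in any of the 23 alternatives; the smallest adjusted p of a member was 0.252, for Sirt6 without DekTg replicate 2. Without DekTg replicate 2, 4 members had an unadjusted p under 0.05, against 2 as reported and 1 with quantile normalization, without the trend or without DekCon replicate 1. Over all genes, 13 were called as reported, 4 without limma's trend, 8 on leaving out the 6 genes with fractional reads (an alternative chosen after seeing the data), and 13 to 21 on leaving out each library in turn, the highest without DekTg replicate 2. With the replicate block, 15 genes and 0 members were called. Over all genes tested, same-numbered libraries deviated from their group means with correlations of -0.0028 to 0.02. Of the 8 libraries, 1 correlated best with its own number. Each gene counts alike in that measure, so it cannot show whether some genes share a pattern by number. Mpo was lower in replicates 1 and 4 of both groups (1677, 6147, 5441 and 1619 in DekCon, 1125, 1993, 2897 and 1139 in DekTg). S100a8 did not follow that order in DekCon, where replicate 2 was lowest (427). The labels give only the number, and the cause was not tested. Libraries 1 and 4 of each group were closer (chi-square per degree of freedom 1.58 and 1.65) than other pairs of a group (3.26 to 6.74); averaged, they left 12 genes and 0 members called, and with a term for them 18 genes and 0 members.

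Of the 33 log2 fold changes, 19 kept their sign in all alternatives and 14 turned in at least 1; the cause was not tested. Quantile normalization turned Hdac1 (0.055), Hdac6 (0.046), Ncor1 (0.017), Tbl1xr1 (0.031), Kat6b (0.054) and Kat7 (0.086). Library weights turned Hdac9 (-0.013) and Kat6b (0.0082). Hdac6 also turned with TMM scaling (0.00148), edgeR (0.032), DESeq2 (0.00488) and libraries 1 and 4 averaged (0.081), Kat6b with edgeR (0.00093), and Kat2b with libraries 1 and 4 averaged (-0.081). On leaving out 1 library, 27 of the 33 moved by over 1.5 times or turned at least once; those that did not were Hdac8, Hdac4, Sirt1, Sirt6, Sin3b and Kat8. Values ranged from -0.013 to 0.13 for Hdac9, -0.13 to 0.10 for Hdac6, -0.30 to 0.044 for Hdac10, -0.056 to 0.34 for Hdac11, -0.017 to 0.15 for Ep300, -0.27 to 0.011 for Kat2a, -0.072 to 0.17 for Kat2b, -0.35 to 0.0090 for Kat5, -0.065 to 0.087 for Kat6a, -0.098 to 0.054 for Kat6b and -0.12 to 0.074 for Kat7.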

Other observations

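The ratio of acetyltransferase to HDAC transcript levels was much the same in the 8 libraries. It leaves out the sirtuins, and enzyme activity was not measured. The acetyltransferase level per kb, summed over 9 genes, was 0.62 ± 0.02 of the HDAC level, summed over 11 genes, in DekCon and 0.64 ± 0.04 in DekTg (SD over 4 libraries each). Among sirtuins, the mitochondrial Sirt3 and the nucleolar Sirt7 together made up 47.6 ± 2.7% of the summed level per kb in DekCon and 48.4 ± 4.5% in DekTg. With the longest transcript as the length, these shares were 45.7 ± 3.0% and 45.8 ± 4.2%. On that length Sirt2 (mean of 8 libraries 91.7 per kb) came before Sirt7 (79.7). Crebbp alone made up 30.0 ± 3.7% and 28.8 ± 5.8% of the acetyltransferase level, and its share was highest in DekTg replicate 2, at 36.6%.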
